A study of Mus musculus with 9 samples.

Results

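The genes described here are 10 immediate early genes of the FOS, JUN and EGR families: Fos, Fosb, Fosl2, Jun, Junb, Jund, Egr1, Egr2, Ier2 and Atf3. They were taken by name from the 53379 gene identifiers of each count table, through the symbols that GENCODE M21 (build GRCm38, the assembly also named mm10) gives to Ensembl identifiers, and all 10 were found. The names come from the gene families and no threshold was set, but the family was selected on measured values of these same libraries, among them the higher Egr1 and Fosb with GemC1 and the lower Fosb with Mcidas. The comparisons between groups are therefore given for these genes as a description and are used as support for nothing else. RNA came from cells labelled as neural progenitor cells, sorted for green fluorescence from the forebrain of C57Bl6DBa2 mouse embryos collected at E16.5, 2 days after plasmids had been put in by in utero electroporation at E14.5. One group of 3 libraries received pCAGGS-GemC1, a second group of 3 received the plasmid that the labels spell pCAAGS-Mcidas, and the remaining group of 3 received H2B-GFP, a histone-tagged fluorescent reporter, with neither factor. All groups share the surgery, the sort for green fluorescence and the strain. The factors were driven from a plasmid with a broadly active promoter, so each cell holds a transient copy number that the labels do not give, and the number of embryos behind a library is not stated in them. GemC1 (gene symbol Gmnc) and Mcidas, relatives of geminin found in the nucleus, switch on the multiciliated cell programme, and the series asks how GemC1 sets off that fate.

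Immediate early genes are transcribed within minutes of a stimulus, without new protein synthesis, because the transcription factors that act on their promoters are already bound and need only be phosphorylated. FOS and JUN proteins pair through leucine zippers to form the transcription factor AP-1, ATF3 is a related partner that often represses, EGR1 and EGR2 are zinc finger factors, and IER2 is a small nuclear protein induced together with them. In the brain the family is known as a readout of neuronal activity and growth factor signalling, and in dissociated tissue it is known to respond to handling.

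Promoter windows of these genes were read from RefSeq (GRCm38.p6) to show the response elements in them. Each window runs from 250 bases before to 50 bases after a start site, and 8 of the 10 genes were matched (all but Egr1 and Ier2), with 12 windows. Fos and Fosb are shown because, apart from the low Atf3, they differed most between the factors. Egr2 is shown because its log2 fold changes against GFP were the smallest in size of the 10 genes. Capitals mark matches on either strand to TGACG (the core of the cAMP response element, read as CGTCA on the other strand), TATAAA (the TATA box), GCGNGGGCG (the EGR site) or the CArG box, which binds serum response factor. The windows are Fos at chr12:85473640-85473939 (plus strand), Fosb at chr7:19309996-19310295 (minus strand) and Egr2 at chr10:67537619-67537918 (plus strand).
Fos: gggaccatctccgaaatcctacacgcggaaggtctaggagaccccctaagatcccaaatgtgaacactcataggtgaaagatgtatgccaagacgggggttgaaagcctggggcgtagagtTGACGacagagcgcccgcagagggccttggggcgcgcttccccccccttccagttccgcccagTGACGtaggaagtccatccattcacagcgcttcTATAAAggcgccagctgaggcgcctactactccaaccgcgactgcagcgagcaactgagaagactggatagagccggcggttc
Fosb: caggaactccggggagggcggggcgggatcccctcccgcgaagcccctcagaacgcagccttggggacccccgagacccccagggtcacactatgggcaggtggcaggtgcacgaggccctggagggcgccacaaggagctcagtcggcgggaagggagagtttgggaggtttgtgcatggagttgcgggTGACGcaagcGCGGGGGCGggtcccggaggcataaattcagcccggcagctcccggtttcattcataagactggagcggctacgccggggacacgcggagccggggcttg
Egr2: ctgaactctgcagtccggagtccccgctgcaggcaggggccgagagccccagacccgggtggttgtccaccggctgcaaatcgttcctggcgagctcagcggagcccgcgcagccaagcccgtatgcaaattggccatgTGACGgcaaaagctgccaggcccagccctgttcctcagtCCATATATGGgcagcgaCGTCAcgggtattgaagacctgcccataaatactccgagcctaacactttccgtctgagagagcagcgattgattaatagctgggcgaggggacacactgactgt
The nearest TGACG lay 66 to 62 bases before the start in Fos and 60 to 56 bases before it in Fosb, and only Fosb of these windows held an EGR site, 50 to 42 bases before its start. In Egr2 a CArG box lay 72 to 63 bases before the start, with a TGACG on the opposite strand at 55 to 51. TGACG was found in at least 1 window of 5 of the 8 genes and in 20.8% of all 32851 promoters in the table. The counts by gene take in any window of a gene, and Egr2 had several, whereas the percentages count single promoters. The Jund window, chr8:70697489-70697788, ended before the Jund gene start at 70698949. The EGR site was found in 2 genes (5.55% of all promoters), the TATA box in 2 (13.6%) and the CArG box in 1 (1.63%). The full element TGACGTCA, which contains TGACG, and the AP-1 site TGANTCA matched in none of the 8 genes (1.79% and 7.81% of all promoters). TGACG was added to the search after the full element had given no match. These are matches of letters within a short window and say nothing about binding in these cells.

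Library totals ran from 22914704 to 41163917 counts, and a floor of 3 counts was 0.0729 to 0.131 CPM (counts relative to the library total). Levels given below as CPM were also TMM-scaled. Gmnc had 6591 to 9651 counts in the GemC1 libraries, 0 to 9 in the Mcidas libraries and 0 in each GFP library. Mcidas stood at 387.5 to 596.9 CPM in its own group, 60.2 to 76.8 CPM in GemC1 and 0.647 to 0.690 CPM in GFP, so every library carried the factor of its label. The labels do not say whether the replicates came from separate litters or surgeries, and p-values then measure only the spread between these samples, which may be technical. The Mcidas libraries carry another year code in their file names than the others. If that code marks a batch, its effect and that of the Mcidas plasmid cannot be told apart. In RNA of bulk samples, fewer cells that express a gene and less RNA per cell cannot be told apart either. Marker genes of radial glia and of cortical neurons were both present: summed over 8 genes each they stood at 846.7 to 1407 CPM and at 3556 to 4912 CPM over the 9 libraries, so the sorted cells labelled as progenitors also carried neuronal RNA.

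Of the 10 genes, Fosb and Egr1 rose with GemC1 and Fosb fell with Mcidas, each against GFP. The Fosb and Egr1 calls with GemC1 (adjusted p = 0.0449 and 0.0374) were lost in 9 and 10 of 18 alternatives. The Fosb call with Mcidas held in all 18. Fosb had the clearest pattern: it was highest in GemC1, intermediate in GFP and lowest in Mcidas, with no overlap between any of the groups. Fos, Egr1, Ier2 and Jund were also above every Mcidas library and every GFP library in all 3 GemC1 libraries. Between GemC1 and GFP, edgeR's quasi-likelihood test across 19572 genes called 2 of the 10 genes higher (Egr1 and Fosb, against 3.86% of all genes tested) and none lower (1.32%), where a call is a Benjamini-Hochberg adjusted p under 0.05. All 10 members had fold changes above 0 on the log2 scale (median 0.62, and 0 over all genes tested), but that of Egr2 kept its sign in only 13 of 18 alternatives (down to -0.60, without GemC1 replicate 3). In 7 of the 10 genes every GemC1 library lay above every GFP library (13.2% of all genes), and in none below (11.7%). An unadjusted p under 0.05 was reached by 7 genes, all higher. By p the last of these 7, Fosl2, ranked 3494 among all 19572 genes, so at least that many genes, higher or lower, passed. DESeq2 called 4 of the 10 higher, and 1159 higher and 658 lower over all genes.

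Between Mcidas and GFP most of the family had lower means with the factor, but only Fosb and Fos had 95% intervals of the fold change below 0. Fosb was called lower (0.327% of all genes tested) and no member higher (4.03%). At an unadjusted p under 0.05, 1 gene was higher and 2 were lower. The 1 higher, Fosl2, ranked 2388 by p among all 19572 genes, so at least that many, higher or lower, passed. DESeq2 likewise called 0 members higher and 1 lower, and 1077 higher and 112 lower over all genes. Of the 10 log2 fold changes 2 were positive, those of Fosl2 and Jun, and the median was -0.22 against -0.03 over all genes. Jun kept its sign in 17 of 18 alternatives, and Atf3 and Egr2 kept theirs in 16 each. Fosb was also the 1 gene whose Mcidas libraries all lay below GFP (8.87% of all genes), and no gene's lay above (10.7%).

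In the direct comparison of GemC1 with Mcidas few genes of any kind were called. Only 3 of 19572 genes were called higher (0.0153%) and 7 lower (0.0358%), and Fosb was 1 of the 3, the others being Gmnc itself and Gm10800, named after their values were seen. Fosb ranked 4 among all genes by p, Egr1 17, Ier2 27 and Fos 32, although the last 3 missed the adjusted threshold. The log2 fold changes of all 10 members were above 0 (median 0.82, and -0.004 over all genes), but Fosl2 kept its sign in only 13 of 17 alternatives (down to -0.38, without Mcidas replicate 3) and Egr2 in 16 of 18 (down to -0.54, without GemC1 replicate 3). In 5 members (Fos, Fosb, Jund, Egr1 and Ier2) the libraries of the groups did not overlap, all higher in GemC1 (9.07% of all genes), and none was lower (7.64%). No member was called lower, at an unadjusted p under 0.05 none was lower and 7 were higher, and DESeq2 called 5 higher and 0 lower. By p the last of these 7, Atf3, ranked 1837 among all 19572 genes, so at least that many genes, higher or lower, passed. Over all genes DESeq2 called 195 higher and 304 lower. GemC1 and Mcidas were each set against the same 3 GFP libraries, so their comparisons with GFP are not independent of one another.

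**Figure D1:**
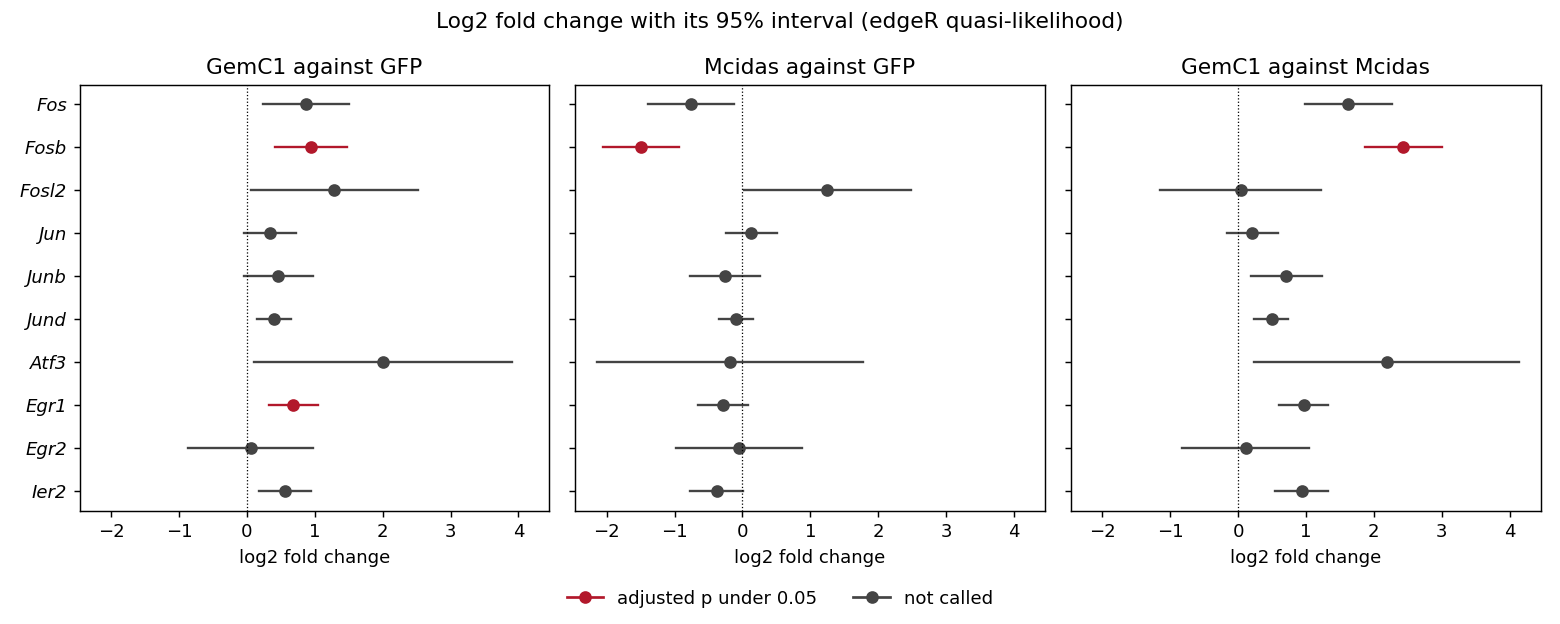
Log2 fold change of each of the 10 genes (x axis) with its 95% interval in the 3 comparisons, from the edgeR quasi-likelihood fit, with calls at an adjusted p under 0.05 in red. Fosb is called in all 3 panels, higher with GemC1 at 0.94 and lower with Mcidas at -1.49, and Egr1 in the first only.

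Among the FOS subunits, which cannot pair with themselves and need a JUN partner, only Fosb was called. Fosb (ENSMUSG00000003545, chromosome 7, 19302696 to 19310051, minus strand) was at 10.6, 12.0 and 12.5 CPM in GemC1 replicates 1, 2 and 3, at 6.56, 5.94 and 5.82 CPM in GFP and at 2.04, 3.04 and 1.34 CPM in Mcidas. These are 301 to 379 counts in GemC1, 194 to 242 in GFP and 31 to 100 in Mcidas, and no library of 1 group reached the range of another. The log2 fold change was 0.94 ± 0.24 (SE, 95% interval 0.41 to 1.47, adjusted p = 0.0449) for GemC1 against GFP and -1.49 ± 0.26 (-2.05 to -0.94, adjusted p = 0.00341) for Mcidas against GFP. For GemC1 against Mcidas it was 2.43 ± 0.26 (1.87 to 3, adjusted p = 0.00277), a 5.395-fold difference. The last 2 calls held in all 18 alternatives, with adjusted p from 4.8e-07 to 0.0191 and from 5.35e-18 to 0.0261. The call of GemC1 against GFP was lost in 9 of 18 (adjusted p from 0.00206 to 0.171). These were the removal of any GemC1 library (0.0763, 0.103 and 0.11 without replicates 1, 2 and 3) or any GFP library (0.0873, 0.154 and 0.171), the replicate number as a block (0.0727), removal of the trend on GC content (0.0724) and both of these together (0.103), with fold changes between 0.86 and 1.01 throughout.

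Fos (ENSMUSG00000021250, chromosome 12, 85473890 to 85477273, plus strand), the founding member of the family, was far more abundant than Fosb. It stood at 223.8, 210.2 and 265.9 CPM in GemC1, at 165.6, 130.9 and 86.9 CPM in GFP and at 44.1, 88.8 and 94.8 CPM in Mcidas. GemC1 lay above both other groups in every library, whereas Mcidas replicates 2 and 3 overlapped with GFP replicate 3. Its log2 fold change was 0.87 ± 0.28 (SE, adjusted p = 0.119) for GemC1 against GFP, -0.76 ± 0.29 (adjusted p = 0.274) for Mcidas against GFP and 1.62 ± 0.29 (interval 0.98 to 2.27, adjusted p = 0.118) for GemC1 against Mcidas. None of these was called, and the GFP libraries ranged from 86.9 to 165.6 CPM. Without Mcidas replicate 1, the library with the lowest Fos, the comparison of GemC1 with GFP had an adjusted p of 0.0152, and on those 2 groups alone 0.0272 (0.0152 to 0.344 over the alternatives). DESeq2 gave 0.000803 for GemC1 against Mcidas (0.000803 to 0.308 over the alternatives).

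Fosl2, which encodes the FOS-related antigen FRA2, was counted at low numbers. It had 33, 35 and 28 counts in GemC1, 49, 47 and 7 in Mcidas and 9, 26 and 14 in GFP. Both factor groups had positive log2 fold changes over GFP, 1.29 ± 0.57 (SE, adjusted p = 0.233) for GemC1 and 1.25 ± 0.57 (adjusted p = 0.381) for Mcidas, and neither was called. Its difference between the factors was 0.04 ± 0.55 (interval -1.15 to 1.22), which takes in a difference of 2-fold either way.

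**Figure D2:**
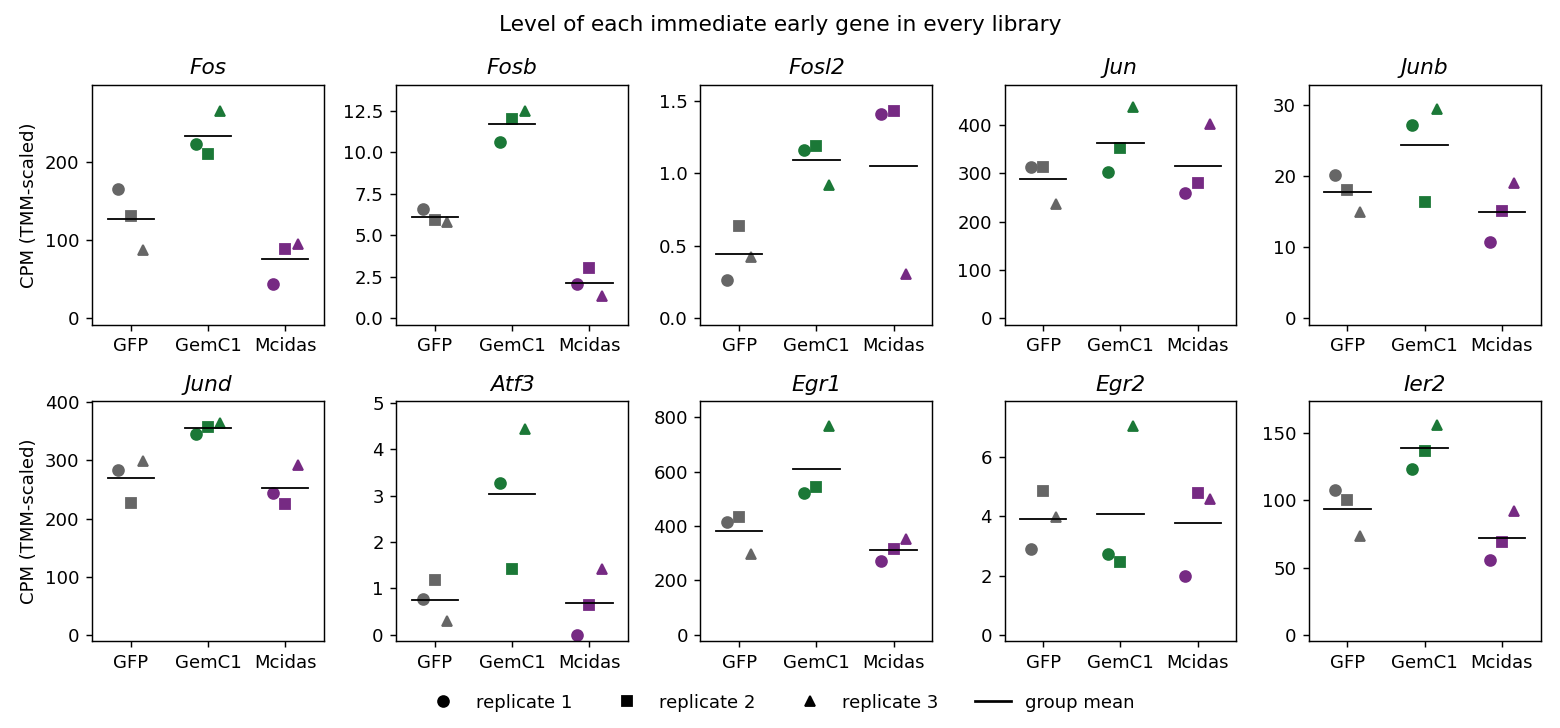
TMM-scaled CPM (y axis, linear) of each of the 10 genes in every library, by group (x axis), with the replicate number as the symbol and the group mean as a bar. The 3 groups of Fosb do not overlap, the GemC1 libraries of Fos, Egr1, Ier2 and Jund lie above all others, and the groups of Egr2 overlap, with GemC1 replicate 3 the highest at 7.04 CPM.

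The JUN subunits can pair with FOS proteins or with each other, and none of the 3 genes was called in any comparison. Jun (chromosome 4, 95049034 to 95052222) was at 301.7, 351.4 and 437.1 CPM in GemC1, 259.4, 280.9 and 402.5 CPM in Mcidas and 312.1, 312.7 and 237.1 CPM in GFP. The 3 ranges overlapped, and the log2 fold change between the factors was 0.21 ± 0.18 (SE, interval -0.17 to 0.59, adjusted p = 0.647). Junb (chromosome 8, 84974484 to 84978718) was the least abundant JUN gene. It was at 27.2, 16.4 and 29.4 CPM in GemC1, 10.8, 15.01 and 19.01 CPM in Mcidas and 20.2, 18.1 and 14.9 CPM in GFP, with a log2 fold change of 0.46 ± 0.24 (adjusted p = 0.309) for GemC1 against GFP and -0.25 ± 0.24 (adjusted p = 0.771) for Mcidas against GFP. Jund (chromosome 8, 70698949 to 70700616), the JUN gene known for steady expression, varied least between replicates. It was at 345.6, 357.9 and 364.6 CPM in GemC1, 283.8, 226.8 and 298.4 CPM in GFP and 243.2, 224.8 and 291.5 CPM in Mcidas. GemC1 lay above both other groups, at 0.40 ± 0.11 (adjusted p = 0.0651) over GFP and 0.49 ± 0.11 (adjusted p = 0.147) over Mcidas, and was not called. For GemC1 against GFP the Jund call appeared in 4 of 18 alternatives (adjusted p from 0.00819 to 0.22): DESeq2, no low-count filter, the replicate block and the removal of Mcidas replicate 3.

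The library kits used do not mark the strand of the RNA, and all 3 JUN genes share exonic bases with another gene. Jund shares 877 of its 1668 exonic bases with the antisense gene Gm11175, whose log2 fold changes were close to its own (0.43 ± 0.12 for GemC1 against GFP and 0.50 ± 0.12 against Mcidas, SE). Jun shares 232 bases with the antisense gene Junos, at 0.37 ± 0.19 and 0.22 ± 0.19. Junb shares 173 bases with Prdx2, a peroxiredoxin gene at 13297 to 24676 counts per library, with 0.02 ± 0.09 and 0.24 ± 0.09. Reads of these pairs cannot be told apart where they overlap, so the levels of the JUN genes are uncertain to that extent.

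Atf3, a stress-induced partner of AP-1, was low in all groups and highest in GemC1. It had 93, 42 and 135 counts in GemC1 (3.28, 1.42 and 4.44 CPM), 26, 48 and 10 in GFP (0.764, 1.18 and 0.300 CPM) and 0, 21 and 33 in Mcidas. The count of 0 in Mcidas replicate 1 allows a level of up to 0.0861 CPM, for counting error only. All GemC1 libraries lay above all GFP libraries, by 2.01 ± 0.87 on the log2 scale (SE, interval 0.11 to 3.91, adjusted p = 0.227), and against Mcidas it was 2.19 ± 0.89 (adjusted p = 0.326). Neither passed the threshold, and the range within GemC1 was itself over 3-fold.

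Egr1 (ENSMUSG00000038418, chromosome 18, 34859823 to 34864984, plus strand), a zinc finger factor, rose with GemC1. It stood at 521.4, 544.2 and 770.0 CPM in GemC1, at 416.4, 432.0 and 296.0 CPM in GFP and at 272.4, 316.5 and 352.1 CPM in Mcidas. GemC1 lay apart from both groups, while Mcidas replicates 2 and 3 overlapped with GFP replicate 3. The log2 fold change was 0.68 ± 0.17 (SE, interval 0.32 to 1.05, adjusted p = 0.0374) for GemC1 against GFP, -0.28 ± 0.17 (adjusted p = 0.578) for Mcidas against GFP and 0.96 ± 0.17 (interval 0.60 to 1.33, adjusted p = 0.109) for GemC1 against Mcidas. The GemC1 call was lost in 10 of 18 alternatives (adjusted p from 0.00142 to 0.181). These were the removal of GemC1 replicate 2 (0.0671), GemC1 replicate 3 (0.113), Mcidas replicate 2 (0.058) and GFP replicates 1, 2 and 3 (0.0598, 0.057 and 0.151), the fit with no low-count filter (0.181), the replicate block (0.0843), removal of the GC trend (0.0537) and both together (0.0985). The fold change lay between 0.48 and 0.79 over all 18 alternatives.

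Egr2, known from hindbrain patterning and Schwann cell myelination, had overlapping groups in all 3 comparisons. It was at 2.71, 2.47 and 7.04 CPM in GemC1, 1.99, 4.78 and 4.59 CPM in Mcidas and 2.91, 4.86 and 3.99 CPM in GFP. GemC1 replicate 3 was the highest library and the other two GemC1 libraries were below every GFP library. Its log2 fold changes were 0.06 ± 0.43 (SE, interval -0.87 to 0.98) for GemC1 and -0.06 ± 0.43 (-0.98 to 0.87) for Mcidas against GFP, intervals that leave room for a difference of nearly 2-fold in either direction.

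Ier2 (chromosome 8, 84661331 to 84662852) followed Fos and Egr1. It was at 123.4, 136.8 and 155.6 CPM in GemC1, 107.7, 100.3 and 73.2 CPM in GFP and 55.7, 69.0 and 92.3 CPM in Mcidas. All GemC1 libraries lay above all others, at 0.56 ± 0.18 (SE, adjusted p = 0.0951) over GFP and 0.94 ± 0.18 (interval 0.55 to 1.33, adjusted p = 0.118) over Mcidas. The first passed the threshold in 3 of 18 alternatives (DESeq2, the 2 groups alone and the removal of Mcidas replicate 1) and the second in 2 (DESeq2 and the removal of Mcidas replicate 3), with adjusted p from 0.0247 to 0.332 and from 0.000202 to 0.398.

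Levels between genes were compared per kilobase of exon (RPKM, scaled CPM divided by exonic length). In GFP libraries Jund led at 162 ± 22.7 RPKM (SD, n = 3), above the range of Jun at 90.1 ± 13.6. Jun, Egr1 (85.1 ± 16.6), Ier2 (61.6 ± 11.9) and Fos (54.3 ± 16.8) followed, and the libraries of each overlapped with those of the next. Junb, at 7.70 ± 1.15, stood alone below them. Egr2 (1.15 ± 0.288) and Fosb (0.978 ± 0.0633) overlapped with each other, and Atf3 (0.347 ± 0.204) and Fosl2 (0.0456 ± 0.0194) closed the order without overlap. In GemC1 Egr1 (136 ± 30.6), Jun (114 ± 21.5), Fos (99.2 ± 12.3) and Ier2 (91.1 ± 10.6) formed the overlapping run below Jund (213 ± 5.78). In Mcidas Fos stood at 32.3 ± 11.8 RPKM. Jun (98.5 ± 24.2), Egr1 (70.0 ± 8.90) and Ier2 (47.5 ± 12.2) were apart there only by gaps far below their SD. The lowest Jun library was at 81.34 and the highest Egr1 library at 78.52 RPKM. The lowest Egr1 library was at 60.75 and the highest Ier2 library at 60.63 RPKM. Of the summed CPM of the 10 genes, Fos made up 13.4% in GemC1, 10.7% in GFP and 7.21% in Mcidas, while Jun made up 20.8%, 24.2% and 29.9%, as ratios of group means.

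**Figure D3:**
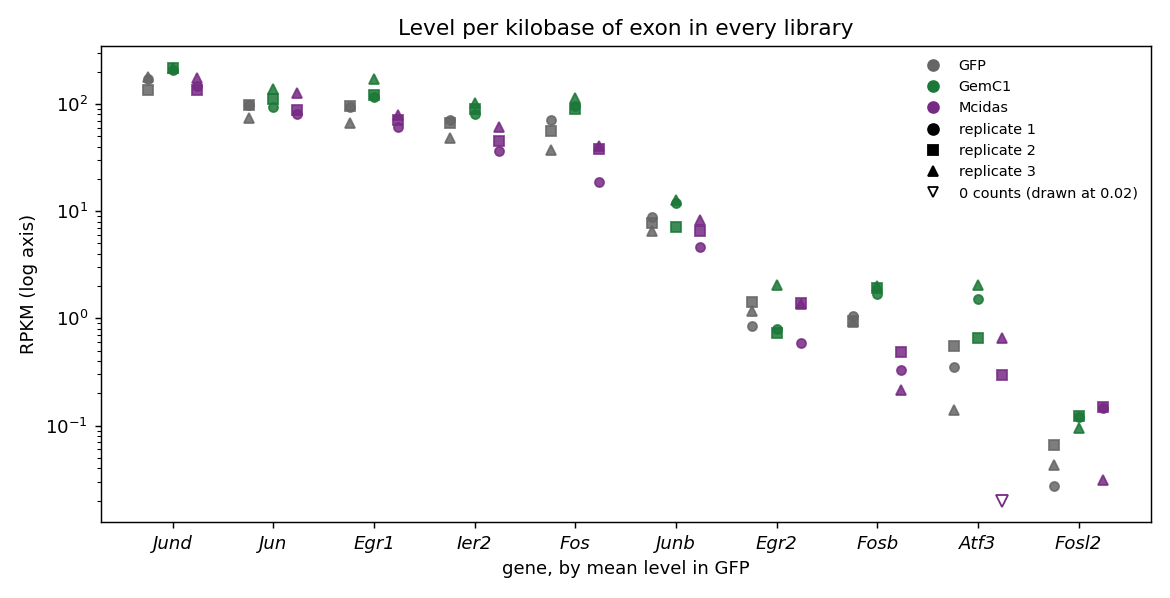
Level of each gene per kilobase of exon (RPKM, log axis) in every library, with genes ordered by their mean in GFP (x axis), colour for the group and symbol for the replicate. Jund is the highest in each group, 5 genes lie above 10 RPKM in every library, and Fosb lies between 0.215 and 2 RPKM.

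The same libraries tended to hold the extremes of their group across the family. GemC1 replicate 3 held the highest level of its group for 9 of the 10 genes (all but Fosl2), GFP replicate 3 the lowest for 7, and Mcidas replicate 1 the lowest for 7. The sum over the 10 genes was 1561, 1634 and 2047 CPM in GemC1, 1316, 1233 and 1017 CPM in GFP and 891, 1005 and 1260 CPM in Mcidas. The SD of log2 CPM around the group means was 0.46 for Fos, 0.34 for Fosb, 0.38 for Junb, 0.29 for Ier2, 0.28 for Jun, 0.27 for Egr1 and 0.17 for Jund, and it was 1.55 for Atf3, 0.75 for Fosl2 and 0.66 for Egr2. Of all 19572 genes 25.5% spread more than Fos and 63.3% more than Jund, but this ranking includes many low genes, whose counts are noisier. The median over all genes was 0.22.

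By the rule that takes the tested genes with the highest Pearson correlation with the mean standardised level of the 10 genes over the 9 libraries, 6 other genes followed the same profile. They were Serpinh1 (r = 0.972, Spearman rho = 0.933), a collagen chaperone, Rcn3 (0.968 and 0.967), Pias4 (0.964 and 0.950), Kcnj10 (0.953 and 0.967), a glial potassium channel, Plcb3 (0.947 and 0.917) and Dffa (0.947 and 0.950). They were picked for these values out of all genes of at least 3 average log2 CPM, share libraries and groups with the family and carry no test. Serpinh1 for instance ran from 29.4 to 32.8 CPM in GemC1, 23.6 to 26.4 in GFP and 20.3 to 26.2 in Mcidas, a far narrower range than that of Fos.

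Of 34 further immediate early genes 32 were tested, and between GemC1 and GFP none was called higher (3.86% of all genes tested) and 1 lower (1.32%), counts that are not read as a result about the list, with a median log2 fold change of 0.11 (0 over all genes), while 6 were higher and 2 lower at an unadjusted p under 0.05 and DESeq2 called 1 and 1. The gene called lower was Ier5, a relative of Ier2, at 109.3 ± 13.0 CPM in GemC1 and 146.7 ± 9.22 in GFP (SD, n = 3), which is -0.42 ± 0.10 on the log2 scale (SE, adjusted p = 0.0263). That call was lost in 5 of 18 alternatives (adjusted p from 0.00254 to 0.115), on removal of GemC1 replicates 2 or 3 or of any GFP library. Its direction was opposite to that of Ier2. No gene of the list was called between Mcidas and GFP (median -0.07; 1 higher and 2 lower unadjusted, 0 by DESeq2) or between GemC1 and Mcidas (median 0.20; 9 higher and 2 lower unadjusted, 3 higher and 0 lower by DESeq2).

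The remaining AP-1 and related leucine zipper genes were not called with GemC1. Of 13 such genes 12 were tested, and Batf had 0 CPM on average in each group. In GemC1 none was called by edgeR against GFP (0 higher and 2 lower unadjusted, 1 lower by DESeq2) and none between the factors (2 higher and 1 lower unadjusted, 2 higher by DESeq2).

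Upstream of the family, 28 genes of the MAP kinase cascade, the ternary complex factors and the CREB group were tested, and edgeR called none in any of the 3 comparisons. At an unadjusted p under 0.05 they counted 0 higher and 6 lower for GemC1 against GFP, 0 and 1 for Mcidas against GFP and 0 and 2 between the factors, and DESeq2 called 2 lower in the first and 0 in the others. Of 16 feedback inhibitors (DUSP, Sprouty, SPRED and NAB genes), all tested, 1 was called lower between GemC1 and GFP (1.32% of all genes tested) and 0 higher (3.86%). These counts are not read as a result about the list. Unadjusted, 0 were higher and 2 lower, and DESeq2 called 1 lower. In Mcidas against GFP (0 higher and 1 lower unadjusted) and between the factors (2 and 2), edgeR and DESeq2 called none. The gene called was Dusp4, a nuclear MAP kinase phosphatase. It fell from 155.5 ± 22.2 CPM in GFP to 106.9 ± 20.1 CPM in GemC1 (SD, n = 3), which is -0.54 ± 0.14 on the log2 scale (SE, adjusted p = 0.0408). The Dusp4 call was lost in 9 of 18 alternatives (adjusted p from 0.00426 to 0.201), among them the removal of GemC1 replicates 2 or 3, Mcidas replicates 2 or 3, or GFP replicates 2 or 3.

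Stress and cell type markers were set beside the family, since handling of tissue is a known stimulus of these genes. Of 15 heat shock and unfolded protein genes 14 were tested. None was called between GemC1 and GFP (3 higher and 0 lower unadjusted, 0 by DESeq2) or between the factors (1 and 1 unadjusted, 0 by DESeq2), and their sum was 2964 to 3151 CPM in GemC1, 2803 to 3315 in Mcidas and 2743 to 2878 in GFP. Every GemC1 library was thus above every GFP library in this sum, as in the sum of the 10 immediate early genes, while Mcidas overlapped with both. The inducible Hspa1a and Hspa1b were near 1 CPM in every group (0.882 and 1.25 CPM in GemC1, 0.611 and 1.23 in Mcidas, 0.791 and 1.48 in GFP). Hsp90aa1 rose with Mcidas, from 300.1 ± 10.3 to 422.0 ± 46.4 CPM (SD, n = 3), which is 0.49 ± 0.09 on the log2 scale (SE, adjusted p = 0.00533), opposite in direction to Fosb. In GemC1 it was at 338.3 to 384.0 CPM, above the 288.9 to 309.2 CPM of GFP, the same direction as Fosb. That difference was not called (0.26 ± 0.09, SE, adjusted p = 0.121). Dissociation time and handling are not recorded in the labels, and their part in the levels of the 10 genes was not tested.

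Microglia and macrophage markers moved with the GemC1 group. Of 22 markers 20 were tested. Against GFP 12 were called higher in GemC1 (3.86% of all genes tested) and 0 lower (1.32%). Unadjusted, 16 were higher and 0 lower, and DESeq2 called 15 and 0 (1159 and 658 over all genes). C1qb, P2ry12, Itgam and Lyz2 were the first by adjusted p, at log2 fold changes of 2.60, 2.88, 4.58 and 3.21. The sum of the 22 markers was 93.5 to 135.6 CPM in GemC1, 54.89 to 82.99 in Mcidas and 35.0 to 52.1 in GFP. In Mcidas against GFP 2 were called higher (4.03% of all genes tested) and 0 lower (0.327%), C1qb at 2.08 and P2ry12 at 1.81. Fosb was lower in that comparison. Unadjusted, 10 markers were higher and 0 lower there, and DESeq2 called 5 and 0 (1077 and 112 over all genes). Between GemC1 and Mcidas edgeR and DESeq2 called none of the 20, of which 7 were higher and 0 lower unadjusted, and all 20 had a log2 fold change above 0 (median 1.02). The P2ry12 call for Mcidas against GFP was lost in 9 of 18 alternatives (adjusted p from 0.00285 to 0.188). The summed marker level was highest in GemC1 replicate 1, whereas the family was highest in GemC1 replicate 3. Of the defining markers, Mrc1 was at 0 in 5 of 9 libraries and Pf4 in 3, Ptprc in 2, and C1qa and Siglech in GFP replicate 3. The part of these cells in the levels of the 10 genes was not tested. No gene of the endothelial and pericyte list (10 tested) or the erythroid list (4 tested) was called by edgeR in any comparison. For GemC1 against GFP, 3 endothelial and 1 erythroid gene were lower at an unadjusted p under 0.05 and DESeq2 called 2 and 0 lower, for Mcidas against GFP these counts were 0, and between the factors 3 endothelial genes were lower unadjusted and 0 by DESeq2.

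Of 8 cortical neuron markers, all tested, 3 were called lower in GemC1 against GFP (1.32% of all genes tested) and 0 higher (3.86%). Unadjusted, 6 were lower and 0 higher, and DESeq2 called 4 lower. The 3 were Myt1l, Dcx and Rbfox1, at log2 fold changes of -0.45, -0.37 and -0.44. Of 8 radial glia markers only Hes5 was called in Mcidas against GFP, lower at -0.59 (0.327% of all genes tested). Of these 8, 4 had positive fold changes there (median 0.04). In GemC1 no radial glia marker was called (4 higher and 1 lower unadjusted, 3 and 1 by DESeq2). Hes1 was lower there, at -0.75 ± 0.23 (SE). Myt1l lost its call in 2 of 18 alternatives, Dcx in 6, Rbfox1 in 7 and Hes5 in 8. The summed neuron markers were 3556 to 3821 CPM in GemC1, 3762 to 4185 in Mcidas and 4271 to 4912 in GFP, and the summed radial glia markers 1235 to 1407, 877.5 to 1128 and 846.7 to 1095 CPM. GFP replicate 3, which had the lowest level of 7 of the 10 immediate early genes in its group, also had the highest neuron and the lowest radial glia sum, and Mcidas replicate 1 had the highest neuron and the lowest radial glia sum of its group. GemC1 replicate 3, highest for 9 of the 10 genes in its group, held neither extreme, with 3636 CPM for neurons and 1268 CPM for radial glia. Mcidas replicate 3, highest for 7, had the lowest neuron sum of its group (3762 CPM). Its radial glia sum was not the highest (1100 CPM, against 1128 CPM in replicate 2). The part of cell composition in the levels of the family was not tested. The 10 genes are also rich in GC: their transcripts held 51.2% to 67.1% GC (median 55.7%, and 49.5% over the genes tested), and all 10 were above that median. With the trend of each library on GC content removed, 0 members were called between GemC1 and GFP. Fosb then had a log2 fold change of 0.855 (adjusted p = 0.0724), against 0.938 without that step. Egr1 had 0.597 (adjusted p = 0.0537), against 0.682. The part of GC content in the levels of the family was not tested. Fosb stayed called in the other comparisons, at -1.50 for Mcidas against GFP and 2.36 for GemC1 against Mcidas.

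**Figure D4:**
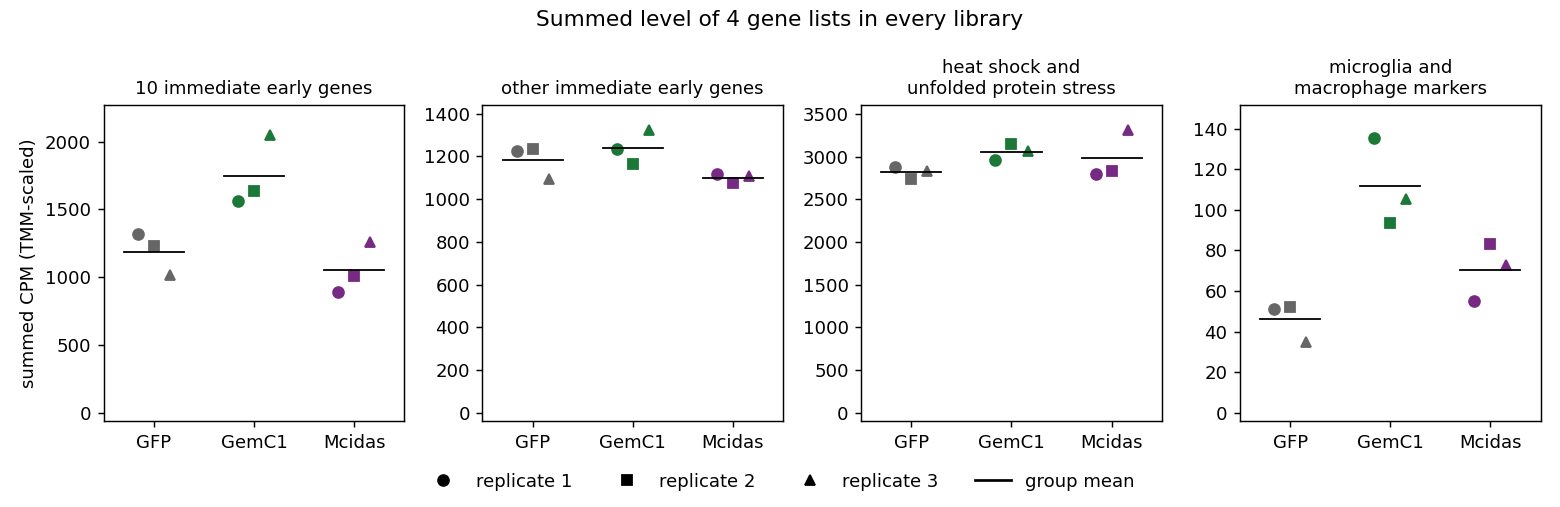
Summed TMM-scaled CPM (y axis, linear) of 4 gene lists in every library, by group (x axis), with the replicate number as the symbol and the group mean as a bar. The 10 immediate early genes run from 1561 to 2047 CPM in GemC1 and from 891 to 1316 CPM elsewhere, the heat shock list spans 2743 to 3315 CPM with every GemC1 library above every GFP library and Mcidas overlapping with both, and the microglia markers are highest in GemC1.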

How the data were processed

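RNA-seq of 9 libraries in 3 groups of 3 was analysed. The labels' protocols give 10 ng of RNA per library, amplification with SMART-Seq v4, Nextera XT libraries from about 150 pg of cDNA and 75 bp reads from a NextSeq 500. These kits keep no strand. The deposited values are raw counts per Ensembl gene in 1 table per library, as the whole numbers in them show. Tools listed by the submitters' processing notes, without a role, are HTSeq 0.5.3, STAR 2.5.2b and DESeq2 1.8.1, with the build mm10. The annotation release and strand setting were not found in the labels or headers.

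Of 53379 identifiers 53274 were matched to GENCODE M21. In edgeR 4.0.16 (R 4.3.3), filterByExpr with a minimum count of 10 and a minimum total of 15 retained 19572 genes, all 10 members among them. TMM scaling (factors 0.96 to 1.035) and 1 quasi-likelihood fit of all 9 libraries by group followed (robust, two-sided, Benjamini-Hochberg over all genes tested). The SD of log2 CPM uses a prior count of 2, and standard errors derive from the quasi-likelihood F. The fit was tested on simulated data. Replicates were not duplicates, since their counts gave a chi-square of 14.1 to 25.8 per degree of freedom. Floors of 3 counts cover counting error only.

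The members and gene lists were chosen with earlier results of these data known. The rule for named genes takes all members, Gmnc and Mcidas, up to 4 called genes of each other list and comparison by adjusted p, and the 6 genes most correlated with the members. Alternatives were DESeq2 1.42.0 and its size factors, other low-count filters, the replicate block, only the groups compared, removal of mitochondrial, globin and plasmid gene counts, GC offsets and the removal of each library. Those for named genes outside the 10 were added after seeing the data. A result of the list of other AP-1 genes for Mcidas against GFP is not reported here.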

Additional observations from a re-analysis of the deposited data

How the results depend on the processing

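Of 539 values of the members' fold changes under the 18 alternatives per comparison, 505 kept their direction or stayed uncalled, 19 lost a call (Fosb and Egr1 for GemC1 against GFP) and 15 gained one. The cause was not tested. For GemC1 against GFP the count of members called higher, 2 in the reported fit, was 4 with DESeq2 and 4 on the 2 groups alone. It was 1 with the replicate block, where Jund was called and Fosb and Egr1 were not. The count was 0 with the GC trend removed, 0 with GC and replicate block together, and 0 to 4 when a library was left out. Over all genes the 756 called higher and 259 lower became 1159 and 658 with DESeq2, 557 lower with no low-count filter, 147 lower with the replicate block, 137 lower with GC and block, and 443 to 877 higher and 32 to 267 lower without 1 library. For Mcidas against GFP the 64 lower became 112 with DESeq2, 123 with no filter and 29 to 99 without 1 library. For GemC1 against Mcidas the 1 member became 5 with DESeq2, 2 with no filter and 1 to 2 without 1 library. The 3 genes higher and 7 lower became 195 and 304 with DESeq2, 66 and 129 with no filter, and 3 to 5 and 1 to 8 without 1 library. Lower genes numbered 3 with the replicate block, 2 on the 2 groups alone, 3 without mitochondrial, globin and plasmid gene counts and 4 with GC and block. Same-numbered libraries correlated in their deviations at r from -0.218 to 0.039, and differently numbered ones at r from -0.098 to 0.257. With 3 libraries per group these values cannot show whether same-numbered libraries shared a litter or surgery. The fold change of Egr2 for GemC1 against GFP turned negative in 5 of its 18 alternatives, and others that turned were uncalled. Counts of Fosl2, Atf3 and Egr2 were low (0 to 214) and their replicates spread widely, and the part of depth was not tested.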
